A study of Homo sapiens with 11 samples.

Results

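The proteasome genes are the rows of the deposited gene count tables whose symbol is PSM, a letter from A to F and a number. There are 44 of them among 23228 genes: 16 constitutive or tissue-restricted core subunits (PSMA and PSMB), 3 immunoproteasome subunits (PSMB8, PSMB9 and PSMB10), 20 genes of the regulatory particle and its chaperones (PSMC and PSMD), and 5 activators or inhibitors (PSME and PSMF). A total of 43 passed the filter on low counts. PSMA8, a testis form of an alpha subunit, had 1 read in U2OS doxorubicin, 1 in U2OS etoposide and 0 in the other libraries, and was not tested. PSMB11, the catalytic subunit of the thymic proteasome, passed only through the doxorubicin libraries, so it is described apart by its reads and is left out of every count of called genes. These counts are over 42 genes.

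RNA was sequenced from 11 cultures of U2OS, an osteosarcoma line, and MDA-MB231, a breast cancer line labelled as basal type. Cells of each line received doxorubicin at 1 µM or etoposide at 20 µM, which both act on topoisomerase II, MMS (methyl methanesulfonate, an alkylating agent) at 40 µg/mL, or paclitaxel at 0.2 µM, which stabilizes microtubules, each for 8 h, and were set against cells given DMSO, the vehicle. There was 1 library for each line and treatment, except for 2 MDA-MB231 DMSO libraries. Replicate 2 of these, whose title gives 8 h and whose description says that it was untreated although its treatment label says DMSO, has the title form of the MDA-MB231 MMS library and served as its reference. The labels mention no transgene in either line. Within a drug, the replicates are therefore the 2 lines, the labels say nothing further on how separate the cultures were, and p-values measure the spread between these libraries.

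The gene counts of a library summed to between 16774156 and 31588683. Reads aligned to several places, which stayed out of the gene counts, made up 37.5% of reads in U2OS doxorubicin and 34.4% in MDA-MB231 doxorubicin, against 32.7% in U2OS DMSO, 30% in MDA-MB231 DMSO replicate 1 and 30.4% in replicate 2. A total of 20 of the 44 proteasome genes have a pseudogene named after them in the RefSeq gene table, and PSMC1 has 13. PSMC1 was counted at only 2.36 to 5.63 CPM and its values are uncertain. The 9 osteoblast and mesenchymal markers summed to 99 CPM in U2OS DMSO, with COL1A1 at 48.6 CPM, RUNX2 at 23.3, CDH11 at 16.2, ALPL at 7.84 and SPP1 at 3.12. The other 4 were at or near 0 CPM there: COL1A2, the partner chain of COL1A1, and IBSP, SP7 and BGLAP, which mark mature osteoblasts. The 9 basal breast markers summed to 4145 and 3925 CPM in the MDA-MB231 DMSO libraries, mostly VIM, CD44 and EGFR, while the basal keratins KRT5 and KRT14 were at or near 0 CPM. The same list summed to 3732 CPM in U2OS DMSO. The osteoblast and mesenchymal list summed to 334 and 381 CPM in the MDA-MB231 DMSO libraries, above its U2OS DMSO value. Neither list thus sets its own line apart by its sum.

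The proteasome degrades proteins tagged with ubiquitin. Its core is a barrel of alpha rings, which gate the entry, around beta rings, which hold the cutting sites of PSMB5 (chymotrypsin-like), PSMB6 (caspase-like) and PSMB7 (trypsin-like). The regulatory particle caps the barrel: a base with a ring of ATPases (PSMC) unfolds substrates, and a lid, with the ubiquitin-removing enzyme PSMD14, holds and deubiquitinates them. Interferons induce PSMB8, PSMB9 and PSMB10, which replace PSMB5, PSMB6 and PSMB7 in new core particles and shift the peptides made for antigen presentation, together with the activator subunits PSME1 and PSME2. When proteasome activity is short, the transcription factor encoded by NFE2L1 is known to raise proteasome genes through antioxidant response elements in their promoters.

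The promoters below are shown because they belong to genes at both ends of the doxorubicin response described next and because each holds a letter match to a known response element. Each run is the 250 bases before the RefSeq start (GRCh38.p14), read 5′ to 3′ on the strand of the gene. Capitals mark GAAA, any 2 bases and a second GAAA, the letters of an interferon-type element, in the first 3, and TGACNNNGC, the core of an antioxidant response element, in the last and, as the first of its capital stretches, in PSME2.
PSMB4, chr1:151399323-151399572, plus strand: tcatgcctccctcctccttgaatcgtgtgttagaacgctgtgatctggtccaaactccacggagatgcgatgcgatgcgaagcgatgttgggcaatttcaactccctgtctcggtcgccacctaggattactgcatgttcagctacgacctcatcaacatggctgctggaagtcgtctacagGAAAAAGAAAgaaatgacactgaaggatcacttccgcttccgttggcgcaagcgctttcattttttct
PSMB10, chr16:67936851-67937100, minus strand: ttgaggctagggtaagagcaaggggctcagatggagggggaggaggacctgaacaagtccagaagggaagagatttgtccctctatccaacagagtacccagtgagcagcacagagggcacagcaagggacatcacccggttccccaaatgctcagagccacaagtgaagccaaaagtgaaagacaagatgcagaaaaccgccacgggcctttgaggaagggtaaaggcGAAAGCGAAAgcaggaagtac
PSME2, chr14:24146611-24146860, minus strand: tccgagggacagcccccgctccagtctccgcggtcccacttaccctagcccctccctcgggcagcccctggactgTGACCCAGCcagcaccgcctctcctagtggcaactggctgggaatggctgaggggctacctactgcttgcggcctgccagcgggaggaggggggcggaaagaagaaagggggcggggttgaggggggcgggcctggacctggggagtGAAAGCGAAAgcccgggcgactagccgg
PSMD12, chr17:67366578-67366827, minus strand: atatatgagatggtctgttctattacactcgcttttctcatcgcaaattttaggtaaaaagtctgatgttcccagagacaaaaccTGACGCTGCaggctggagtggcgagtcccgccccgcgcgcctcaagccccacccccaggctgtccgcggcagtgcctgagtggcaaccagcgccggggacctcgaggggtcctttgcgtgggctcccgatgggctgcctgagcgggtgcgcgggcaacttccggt
Both strands of 300 bases (250 before and 50 after the start) were searched for each of 39 proteasome genes with a promoter in the table. The interferon-type letters, GAAA, any 2 bases and GAAA, were found in 5 of them (PSMA4, PSMB4, PSMB10, PSME1 and PSME2), which is 12.8%, against 3.57% of all 35116 promoters. TGACNNNGC was found in 11 proteasome promoters, or 28.2%, against 13.3% of all promoters. CCAAT, the letters of a common promoter box, stood in 18, or 46.2%, against 34.6%. TTCNNNGAA, the letters of a STAT site, stood in 5, or 12.8%, against 7.66%. These are letter matches and not shown binding sites, and no test was made on these shares.

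Doxorubicin was the drug under which proteasome RNA moved most. Most core subunits rose, as did the activators PSME1 and PSME2 and the immunoproteasome subunits PSMB8 and PSMB10, whereas several lid subunits fell. All 44 genes together took 0.963% of gene counts in U2OS doxorubicin and 1.04% in MDA-MB231 doxorubicin, against 0.833% in U2OS DMSO, 0.831% in MDA-MB231 DMSO replicate 1 and 0.815% in replicate 2. In edgeR's quasi-likelihood test over both lines, with Benjamini-Hochberg adjustment over 15888 genes and a call at an adjusted p under 0.05, 24 of the 42 genes rose, 5 fell and 13 were not called. Over all genes tested, 21.9% were called higher and 20.6% lower. The median log2 fold change was 0.44 over the 42 genes and 0.07 over all genes tested. In bulk RNA, a change in every cell and a change in the share of cells cannot be told apart.

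By part of the complex, 13 of 14 core genes rose and none fell, with a median log2 fold change of 0.65. Of the 20 regulatory genes, 7 rose and 4 fell, with a median of 0.08. Within the regulatory particle, 3 of 6 ATPases rose, 2 of 3 other base subunits rose, and the lid was split, with 2 of 8 genes higher and 3 lower. None of the 3 base chaperones rose and 1 fell. Of the 5 activators and inhibitors, 2 rose and 1 fell. This finer split of the regulatory genes was chosen after the values were known, and no test compared the classes with each other.

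**Figure D1:**
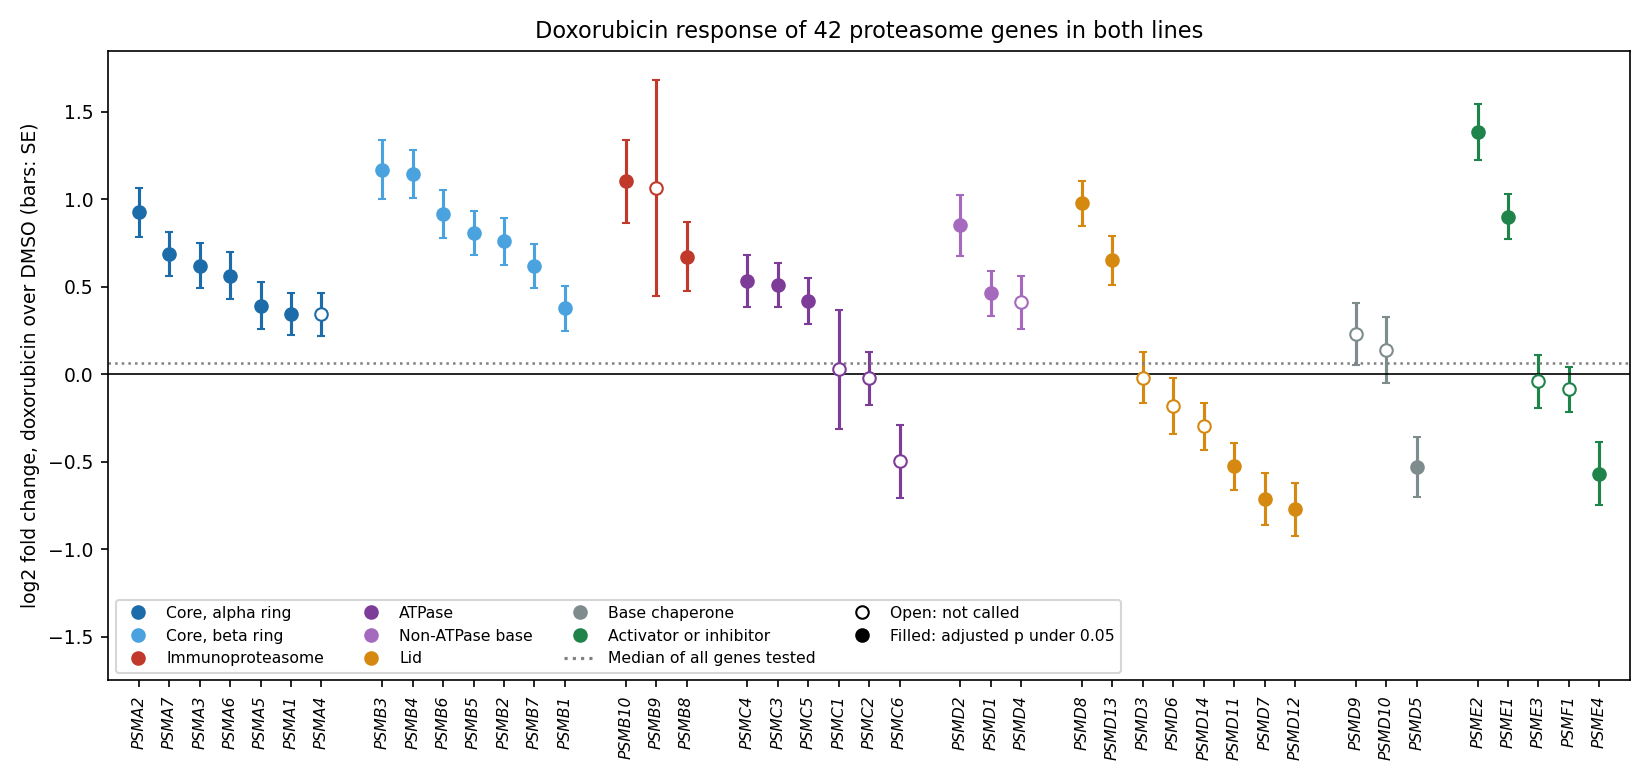
Log2 fold change with its SE, doxorubicin over DMSO across both lines, for 42 proteasome genes grouped by their place in the complex (x axis), with filled points for genes called at an adjusted p under 0.05. All 14 core points lie above 0, 13 of them filled, while the lid runs from 0.98 for PSMD8 to -0.77 for PSMD12.

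The beta ring gave the highest core values. PSMB4, a non-catalytic beta subunit, had 702 CPM (read counts relative to the TMM-scaled library size) in U2OS doxorubicin and 564 in MDA-MB231 doxorubicin, against 283 in U2OS DMSO, 293 in MDA-MB231 DMSO replicate 1 and 252 in replicate 2. Both doxorubicin libraries lay above every DMSO library, and PSMB4 rose by 1.15 ± 0.14 (log2 fold change ± SE, adjusted p = 0.000509), with the ratio 1.31 in U2OS and 0.94 in MDA-MB231. PSMB3, another non-catalytic beta subunit, had 403 CPM in U2OS doxorubicin and 276 in MDA-MB231 doxorubicin, against 167 in U2OS DMSO and 143 and 139 in the MDA-MB231 DMSO libraries. Its log2 fold change was 1.17 ± 0.17 (adjusted p = 0.000982), also with no overlap between the groups. The other beta subunits PSMB2 (0.76 ± 0.13, adjusted p = 0.00245) and PSMB1 (0.38 ± 0.13, adjusted p = 0.0407) rose less.

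The catalytic beta subunits rose too. PSMB5, the target of the proteasome inhibitor bortezomib, had 289.6 CPM in U2OS doxorubicin and 395 in MDA-MB231 doxorubicin, against 171 in U2OS DMSO and 223 and 215 in the MDA-MB231 DMSO libraries (log2 fold change 0.81 ± 0.13, adjusted p = 0.00133). PSMB6 had 236 and 281 CPM in the doxorubicin libraries of U2OS and MDA-MB231, against 118 CPM in U2OS DMSO and 164 and 155 in the MDA-MB231 DMSO libraries (0.92 ± 0.14, adjusted p = 0.00109). PSMB7 had 245 and 236 CPM in the doxorubicin libraries of U2OS and MDA-MB231, against 164 CPM in U2OS DMSO and 153 and 156 in the MDA-MB231 DMSO libraries (0.62 ± 0.12, adjusted p = 0.00428). For each of the 3, both doxorubicin libraries lay above all 3 DMSO libraries. The share of all genes with such a separation was not counted, and 21.9% of all genes tested were called higher.

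In the alpha ring, 6 of 7 tested genes rose, with log2 fold changes of all 7 between 0.34 and 0.93. PSMA2, an alpha subunit, had 387 CPM in U2OS doxorubicin and 303 in MDA-MB231 doxorubicin, against 198 in U2OS DMSO and 175 and 176 in the MDA-MB231 DMSO libraries (0.93 ± 0.14, adjusted p = 0.00128). PSMA7, whose counts were the highest of the ring in the U2OS DMSO library, had 874 and 602 CPM in the doxorubicin libraries of U2OS and MDA-MB231, against 550.4 CPM in U2OS DMSO and 387 and 410.2 in the MDA-MB231 DMSO libraries (0.69 ± 0.12, adjusted p = 0.00267). PSMA4 was the 1 core gene not called, at 0.34 ± 0.12 (adjusted p = 0.0513). PSMA1 and PSMA5 lay just inside the threshold, at adjusted p = 0.0426 and 0.0401. PSMA3 shares its locus with an antisense RNA (PSMA3-AS1), and the strand setting of the counting is not given, so its value (0.62 ± 0.13, adjusted p = 0.00489) may hold reads of both.

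PSMB11 had 39 reads in U2OS doxorubicin and 67 in MDA-MB231 doxorubicin, 5 in MDA-MB231 etoposide, 1 in U2OS MMS, and 0 in the other 7 libraries, all 3 DMSO libraries included. No fold change or test is given for it, since it entered the table of tested genes through the libraries in which it was high. Its level in the doxorubicin libraries, 1.9 CPM in U2OS and 3.13 CPM in MDA-MB231, is the lowest among the tested core genes there.

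The activator genes moved in opposite directions. PSME2, a subunit of the interferon-induced activator that opens the core without ubiquitin, had 102 CPM in U2OS doxorubicin and 129.5 in MDA-MB231 doxorubicin, against 33.6 in U2OS DMSO and 58.1 and 61.3 in the MDA-MB231 DMSO libraries. Its log2 fold change of 1.39 ± 0.16 (adjusted p = 0.00047) was the highest of the 42 genes, with single-line ratios of 1.59 in U2OS and 1.15 in MDA-MB231. A total of 6 pseudogenes carry its name in RefSeq. PSME1, its partner, had 148 and 289 CPM in the doxorubicin libraries of U2OS and MDA-MB231, against 74.6 CPM in U2OS DMSO and 159 CPM in both MDA-MB231 DMSO libraries (0.90 ± 0.13, adjusted p = 0.000997). The U2OS doxorubicin value of PSME1 lies below the MDA-MB231 DMSO values, so its groups overlap unless each line is read by itself. PSME4, a nuclear activator, had 163 and 111 CPM in the doxorubicin libraries of U2OS and MDA-MB231, against 229.7 CPM in U2OS DMSO and 187 and 224 in the MDA-MB231 DMSO libraries. It fell by 0.57 on the log2 scale (SE 0.18, adjusted p = 0.031), and this call was lost in 4 of 18 alternative settings. PSME3 (-0.04 ± 0.15, adjusted p = 0.849) and the inhibitor PSMF1 (-0.08 ± 0.13, adjusted p = 0.627) were not called.

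In the lid, PSMD12 and PSMD7 fell in both lines. PSMD12, a scaffold subunit, had 59.2 CPM in U2OS doxorubicin and 102 in MDA-MB231 doxorubicin, against 115 in U2OS DMSO and 151 and 159.8 in the MDA-MB231 DMSO libraries (-0.77 ± 0.15, adjusted p = 0.00388). PSMD7, the partner of the deubiquitinase PSMD14, had 84.9 and 87.2 CPM in the doxorubicin libraries of U2OS and MDA-MB231, against 147 CPM in U2OS DMSO and 130.3 and 137 in the MDA-MB231 DMSO libraries (-0.71 ± 0.15, adjusted p = 0.00515). Both doxorubicin libraries lay below every DMSO library for each of these genes. The share of all genes with such a separation was not counted, and 20.6% of all genes tested were called lower. In RefSeq, 4 pseudogenes carry the name of PSMD7 and 1 that of PSMD12. PSMD11, another lid subunit, fell by 0.52 (SE 0.13, adjusted p = 0.0128). PSMD14 itself was at -0.30 ± 0.13 and was not called (adjusted p = 0.0986). PSMD8, in contrast, had 485 and 482 CPM in the doxorubicin libraries of U2OS and MDA-MB231, against 243 CPM in U2OS DMSO and 245 and 253 in the MDA-MB231 DMSO libraries (0.98 ± 0.13, adjusted p = 0.000699). PSMD13 rose as well (0.65 ± 0.14, adjusted p = 0.00566).

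In the base, PSMD2, the largest-count gene of the set and a docking subunit for substrates and shuttles, had 1689 CPM in U2OS doxorubicin and 1450.0 in MDA-MB231 doxorubicin, against 846 in U2OS DMSO and 996 and 1151 in the MDA-MB231 DMSO libraries (0.85 ± 0.17, adjusted p = 0.00449). PSMD1 rose by less (0.46 ± 0.13, adjusted p = 0.0182), and the ubiquitin receptor PSMD4 was not called (0.41 ± 0.15, adjusted p = 0.0528). Of the ATPases, PSMC4 (0.53 ± 0.15, adjusted p = 0.018), PSMC3 (0.51 ± 0.13, adjusted p = 0.0115) and PSMC5 (0.42 ± 0.13, adjusted p = 0.0298) rose. PSMC5 overlaps the protein-coding gene FTSJ3. Reads of the shared stretch may have been left out as ambiguous where both genes were annotated, so its value may lack them. PSMC6 was the lowest ATPase, at -0.50 ± 0.21, and was not called (adjusted p = 0.0804). Its single-line ratios were -0.91 in U2OS and -0.15 in MDA-MB231. PSMD5, an assembly chaperone of the base, fell by 0.53 (SE 0.17, adjusted p = 0.0347), while the chaperones PSMD9 (0.23 ± 0.18, adjusted p = 0.316) and PSMD10 (0.14 ± 0.19, adjusted p = 0.585) were not called.

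The doxorubicin counts depend on how libraries are scaled. With scaling to total gene counts, an alternative chosen after the data were seen, the median log2 fold change of all genes moved to -0.15, and 15.4% of genes were called higher and 25.6% lower. Under it, 15 of 42 proteasome genes were higher and 7 lower. By part, 9 of 14 core genes were still higher and none lower, against 3 higher and 6 lower of the 20 regulatory genes, whose median changed sign to -0.13. No called gene changed direction. The count of genes that rose was 15 without MDA-MB231 DMSO replicate 1, and the count that fell was 2 without that library, without U2OS DMSO or without U2OS doxorubicin. Over all genes, 3476 were called higher and 3272 lower in the main fit. Without these libraries in turn, 4058, 4366 and 5418 were called in either direction.

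Within single lines, where 1 library faces 1 library and no test can be made, 17 genes were at least 1.5-fold higher and 4 at least 1.5-fold lower in U2OS doxorubicin, where 27.2% and 30.1% of all genes above the minimum level did so. In MDA-MB231 doxorubicin, 14 were higher and 1 lower, where 21.7% and 31.1% of all genes did so. In both lines 11 genes were past this fold upward, and none downward, where 16.7% of the 10525 genes above the minimum level in both lines were past it upward and 22.9% downward. The 4 lower genes in U2OS were PSMC6, PSMD12, PSMD5 and PSMD7, and the 1 in MDA-MB231 was PSME4 (log2 ratio -0.75).

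**Figure D2:**
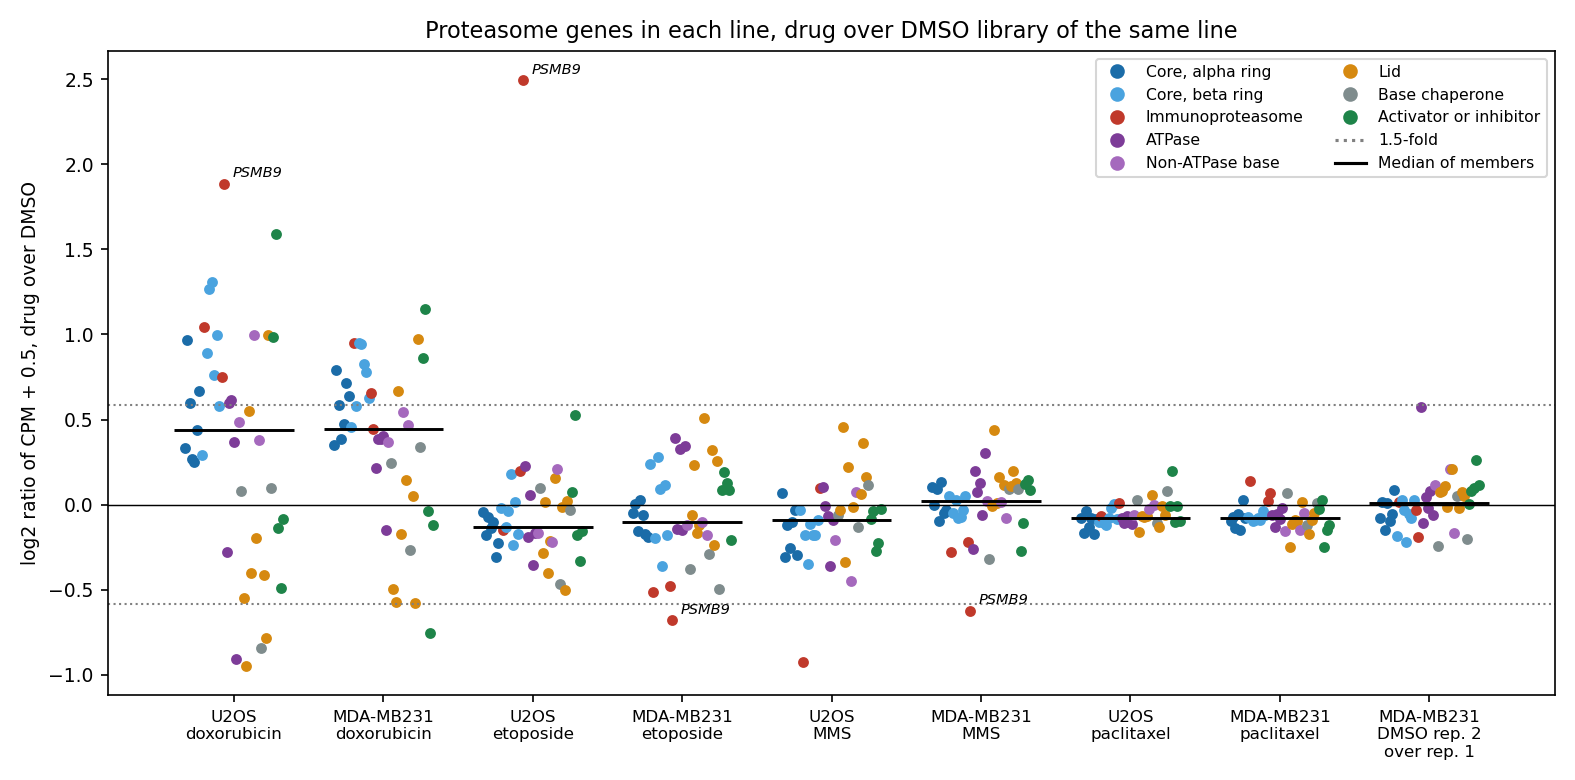
Each point is the log2 ratio of CPM + 0.5 of 1 proteasome gene with at least 5 CPM in 1 of the paired libraries, drug over DMSO of the same line and title form (last column: MDA-MB231 DMSO replicate 2 over replicate 1), black bars are medians and dotted lines mark 1.5-fold. The medians are 0.44 in both doxorubicin columns and lie between -0.13 and 0.02 in the other drug columns, where PSMB9 in U2OS etoposide stands apart at 2.50.

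Across the 42 genes, Spearman's correlation of the doxorubicin log2 fold change with the gene's span in GENCODE 29 was -0.55, and it was -0.14 across the 13849 of 15888 tested genes with a span. For the 42 genes it was -0.20 under etoposide, 0.45 under MMS and -0.43 under paclitaxel, where no gene was called. Across all tested genes with a span it was -0.13 under etoposide, -0.17 under MMS and 0.05 under paclitaxel. These responses share their DMSO libraries. PSMB4 spans 2.411 kb, PSMB10 2.586 kb and PSME2 4.209 kb, whereas PSMD12 spans 28.71 kb and PSME4 106.8 kb. PSMD7, at 9.514 kb, fell, and PSMA1, the longest at 138.8 kb, rose. Span is that of the whole gene record, whichever isoforms were expressed. These points come from the same libraries, so the correlation is a description with no p, and the part of span in the response was not tested.

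**Figure D3:**
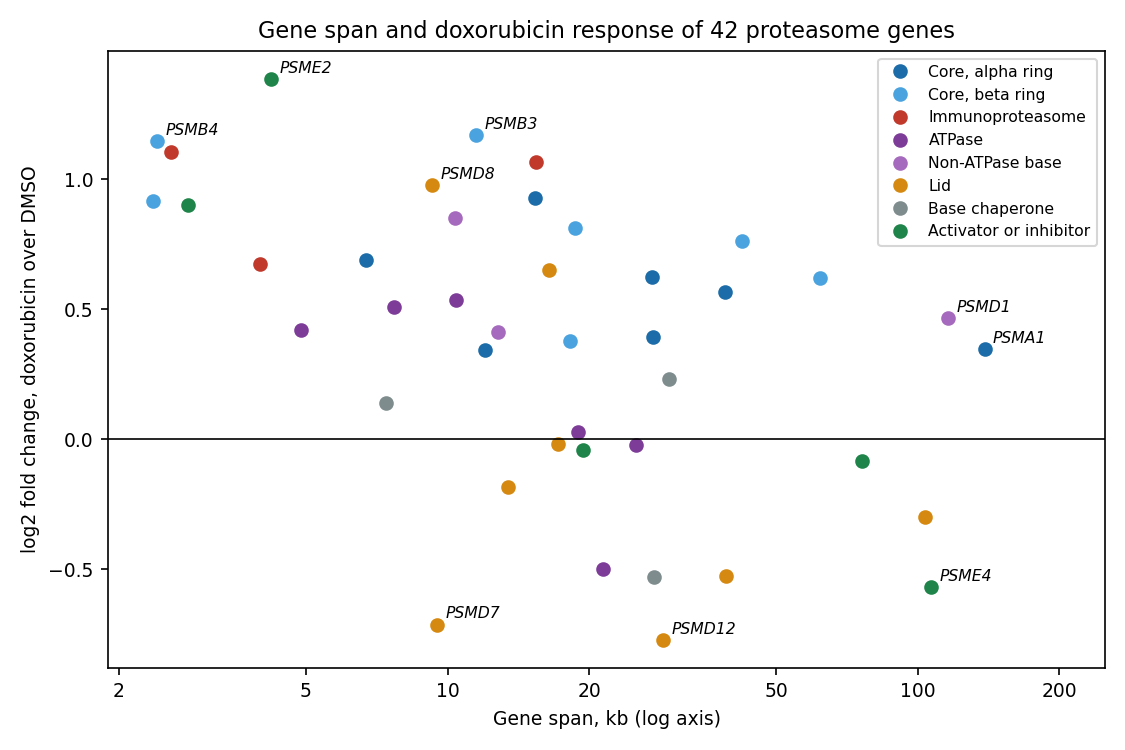
Gene span in kb (log axis) against the log2 fold change under doxorubicin for 42 proteasome genes, coloured by part of the complex. The short genes at the left, such as PSME2 at 1.39 and PSMB4 at 1.15, lie above 0, and most values below 0 lie to the right of 10 kb, with PSMD7 at 9.514 kb as an exception.

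Of the 3 immunoproteasome subunits, PSMB10 and PSMB8 were called higher under doxorubicin, and PSMB9 was not called under any drug. The doxorubicin log2 fold change of PSMB9, 1.07, lay between those of PSMB8 and PSMB10, and it gained a call in 2 of 18 alternative settings. The subunits were not compared with each other by a test. PSMB10 had 46.6 CPM in U2OS doxorubicin and 37.1 in MDA-MB231 doxorubicin, against 22.4 in U2OS DMSO and 19 and 19.2 in the MDA-MB231 DMSO libraries. It rose by 1.10 ± 0.24 (adjusted p = 0.00587), without overlap of the groups. PSMB8 had 57.3 and 121 CPM in the doxorubicin libraries of U2OS and MDA-MB231, against 33.9 CPM in U2OS DMSO and 76.6 and 74.9 in the MDA-MB231 DMSO libraries. Its log2 fold change of 0.67 ± 0.20 (adjusted p = 0.0228) lost its call in 5 of 18 alternative settings. An antisense gene, PSMB8-AS1, overlaps PSMB8. Its reads may be counted for PSMB8, or shared reads may have been left out as ambiguous, and which of these happened is not known here.

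PSMB9 had the widest range. In U2OS it stood at 10.3 CPM under doxorubicin, 15.9 under etoposide, 2.85 under MMS and 3.57 under paclitaxel, against 2.41 under DMSO. In MDA-MB231 it stood at 33.1 CPM under doxorubicin, 14.9 under etoposide, 13.5 under MMS and 25.4 under paclitaxel, against 24.2 in DMSO replicate 1 and 21.1 in replicate 2. Etoposide thus lay above DMSO in U2OS and below it in MDA-MB231. In U2OS etoposide, 588 reads faced 47 in DMSO, a log2 ratio of 2.50 with 0.5 CPM added to both values. Without that offset it was 2.72 (95% Clopper-Pearson interval 2.29 to 3.18, which covers counting error only). In MDA-MB231 etoposide the log2 ratio was -0.68 with the offset and -0.70 without it (interval -0.87 to -0.52). Against DMSO replicate 2 it was -0.49 with the offset. Over both lines PSMB9 was not called under doxorubicin (1.07 ± 0.62, adjusted p = 0.192) or etoposide (1.12 ± 0.64, adjusted p = 0.252).

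Relative to its partner, PSMB9 had 13.4 reads per 100 reads of PSMB6 in U2OS etoposide and 4.35 in U2OS doxorubicin, against 2.04 in U2OS DMSO. In MDA-MB231 the ratio was 8.44 under etoposide and 8.93 under MMS, against 14.8 in DMSO replicate 1 and 13.7 in replicate 2. PSMB10 per 100 reads of PSMB7 was 19 in U2OS doxorubicin and 15.7 in MDA-MB231 doxorubicin, 7.5 in U2OS MMS and 9.76 in MDA-MB231 MMS, against 13.6 in U2OS DMSO and 12.4 and 12.3 in the MDA-MB231 DMSO libraries. PSMB8 per 100 reads of PSMB5 lay between 19.8 and 26.8 in the U2OS libraries and between 30.5 and 37 in those of MDA-MB231, so the lines did not overlap. These ratios are of reads and not per length, so they compare libraries and not the levels of the partners.

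**Figure D4:**
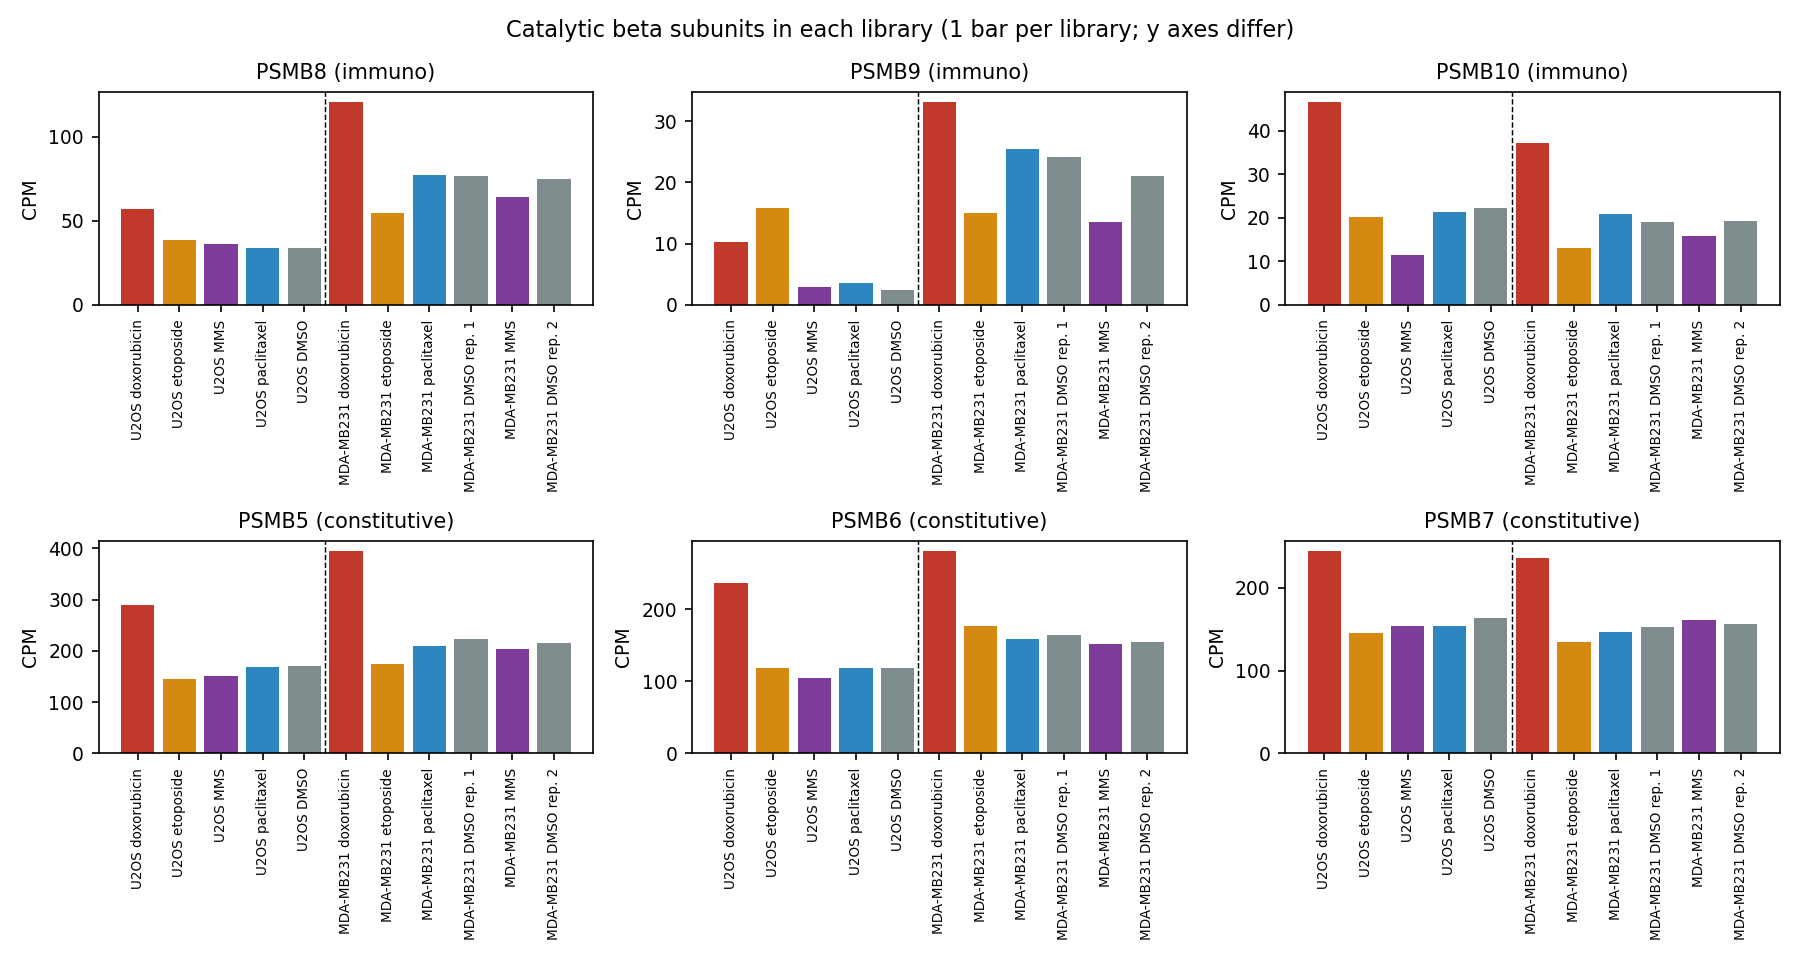
CPM of the immunoproteasome subunits (top) and the constitutive subunits they replace (bottom) in the 11 libraries, 1 bar per library, U2OS left and MDA-MB231 right of the dashed line. Doxorubicin gives the highest bar of its line in each panel except PSMB9 in U2OS, where etoposide reaches 15.9 CPM.

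Genes of interferon signalling and antigen processing were followed as a list of 17, all tested. Under doxorubicin 7 rose and 1 fell, where 21.9% of all genes tested were called higher and 20.6% lower. TAP1, which carries proteasome peptides into the endoplasmic reticulum and shares a promoter region with PSMB9, rose by 1.69 ± 0.25 (adjusted p = 0.00109), B2M by 1.33 ± 0.14 (adjusted p = 0.000356), and CD274, an immune checkpoint ligand, fell by 1.38 (SE 0.29, adjusted p = 0.00577). Under etoposide 4 rose and none fell, where 7.97% of all genes tested were called higher and 9.23% lower. Among the 4 were STAT2 (1.33 ± 0.17, adjusted p = 0.00508), TAP1 (1.27 ± 0.25, adjusted p = 0.0141) and B2M (0.48 ± 0.14, adjusted p = 0.0481). TAP1 was at 119.7 CPM in U2OS etoposide, against 34.4 in U2OS DMSO, and at 179 CPM in MDA-MB231 etoposide, against 107 and 88.3 in the MDA-MB231 DMSO libraries, so it lay above DMSO in both lines where PSMB9 did so in U2OS. IRF1, an activator of PSMB9 and TAP1, was not called under doxorubicin (1.13 ± 0.51, adjusted p = 0.102) or etoposide (0.89 ± 0.51, adjusted p = 0.251). Under MMS and paclitaxel no gene of the list was called. Of all genes tested, 5.23% were called higher and 5.16% lower under MMS, and 0% under paclitaxel. The summed CPM of 9 blood and immune markers was 11.5 in U2OS doxorubicin and 98 in MDA-MB231 doxorubicin, against 4 in U2OS DMSO and 59.8 and 62.8 in the MDA-MB231 DMSO libraries, carried mostly by LAPTM5 and CD14. CD3E and PTPRC, which define T cells and leukocytes, were at or near 0 CPM in all libraries.

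Etoposide, MMS and paclitaxel gave no called proteasome gene over both lines. Under etoposide 0 of 42 genes passed edgeR's test in either direction, where 7.97% of all genes tested were called higher and 9.23% lower. At an unadjusted p under 0.05 there were 2 of the 42, against 33.7% of all genes, and DESeq2 also called 0. The lowest value was that of PSMD7, which had 104 and 110.2 CPM in the etoposide libraries of U2OS and MDA-MB231, against 147 CPM in U2OS DMSO and 130.3 and 137 in the MDA-MB231 DMSO libraries (-0.40 ± 0.15, adjusted p = 0.0929). PSME2 was at 0.36 ± 0.16 (adjusted p = 0.15) and PSMB5 at -0.28 ± 0.13 (adjusted p = 0.152). The median log2 fold change of the 42 genes was -0.06, against 0.02 over all genes tested.

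Under MMS, 0 of 42 genes were called by edgeR, where 5.23% of all genes were called higher and 5.16% lower. At an unadjusted p under 0.05 there were 2 of the 42, against 29.1% of all genes, and DESeq2 called PSMD12 higher and PSMB10 lower. PSMD12, which fell under doxorubicin, had 158 CPM in U2OS MMS and 217 in MDA-MB231 MMS, against 115 in U2OS DMSO and 159.8 in the matched MDA-MB231 DMSO library, replicate 2. Both lines were higher, at log2 ratios of 0.46 and 0.44, and the fitted value was 0.49 ± 0.14 (edgeR adjusted p = 0.0622, DESeq2 adjusted p = 0.0188). PSMB10 had 11.5 and 15.7 CPM in the MMS libraries of U2OS and MDA-MB231, against 22.4 CPM in U2OS DMSO and 19.2 in MDA-MB231 DMSO replicate 2 (-0.67 ± 0.25, edgeR adjusted p = 0.113, DESeq2 adjusted p = 0.0431). Leaving out either doxorubicin library gave 1 gene called higher under MMS.

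Under paclitaxel, 0 of 42 proteasome genes and 0% of all genes were called in either direction by edgeR. At an unadjusted p under 0.05 there were 0 proteasome genes and 110 genes in all, and DESeq2 called 0 proteasome genes. Single-line log2 ratios lay between -0.17 (PSMA6) and 0.20 (PSME2) in U2OS and between -0.25 (PSMD11) and 0.14 (PSMB10) in MDA-MB231. The 2 MDA-MB231 DMSO libraries differed from each other over a similar span, from -0.24 (PSMD10) to 0.57 (PSMC1, at few reads), with no other gene above 0.26 (PSME4).

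Within single lines, the proteasome genes past 1.5-fold under these 3 drugs were all immunoproteasome subunits. In U2OS etoposide 1 was higher, PSMB9, and 0 lower, where 15.7% of all genes above the minimum level were higher and 17.8% lower. In MDA-MB231 etoposide 0 were higher and 1 lower, again PSMB9, where 19.7% of all genes were higher and 23.4% lower. In U2OS MMS 0 were higher and 1 lower, PSMB10 at -0.93, where 17.4% of all genes were higher and 23% lower. In MDA-MB231 MMS 0 were higher and 1 lower, PSMB9 at -0.62, where 9.63% of all genes were higher and 9.92% lower. Under paclitaxel 0 passed the fold in either line. Of all genes, U2OS paclitaxel had 0.914% higher and 0.266% lower, and MDA-MB231 paclitaxel had 1.78% higher and 0.415% lower. Between the MDA-MB231 DMSO libraries, replicate 2 over replicate 1, 0 proteasome genes passed it, against 3.11% of all genes higher and 4.33% lower.

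MMS and doxorubicin were compared directly within the same fit. A total of 4 of the 42 genes were higher and 22 lower under MMS than under doxorubicin, where 20.4% of all genes were higher and 22.3% lower. The 4 higher genes were all lid subunits: PSMD12, at 158 and 217 CPM in the MMS libraries of U2OS and MDA-MB231, against 59.2 and 102 CPM in their doxorubicin libraries (1.26 ± 0.17, adjusted p = 0.000829), PSMD7, at 189 and 158 CPM in the MMS libraries, against 84.9 and 87.2 CPM in the doxorubicin libraries (1.03 ± 0.17, adjusted p = 0.00176), PSMD11 (0.52 ± 0.16, adjusted p = 0.0254) and PSMD14 (0.52 ± 0.15, adjusted p = 0.0245). The lowest called gene was PSMB10, at 11.5 and 15.7 CPM in the MMS libraries of U2OS and MDA-MB231, against 46.6 and 37.1 CPM in their doxorubicin libraries (-1.77 ± 0.30, adjusted p = 0.00182). PSME2 (-1.53 ± 0.19, adjusted p = 0.00056) and PSMB3 (-1.35 ± 0.20, adjusted p = 0.00116) followed among called genes, and PSMB9 was at -1.72 ± 0.74 and not called (adjusted p = 0.0908). Of the core genes 11 of 14 were lower. These values share the doxorubicin libraries with the response above and are not a second observation of it. Leaving out U2OS MMS lowered the count of lower genes to 4. Over all genes, calls in either direction then came to 1884, against 3235 higher and 3536 lower in the main fit. The count of higher genes was 1 without U2OS MMS, 8 without MDA-MB231 doxorubicin, and 2 without U2OS doxorubicin, U2OS DMSO or MDA-MB231 DMSO replicate 1. With total-count scaling 7 were higher and 13 lower, where 25% of all genes were higher and 15.4% lower.

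Against etoposide, MMS gave 1 called gene: PSMD7 was higher under MMS, at 189 and 158 CPM in U2OS and MDA-MB231, against 104 and 110.2 CPM under etoposide (0.72 ± 0.17, adjusted p = 0.0357). All genes tested were higher in 4.73% and lower in 4.33% of cases. The call of PSMD7 was lost in 11 of 16 alternatives, among them the omission of any 1 of the 11 libraries except MDA-MB231 doxorubicin and U2OS doxorubicin. Against paclitaxel, MMS gave 0 called genes in edgeR, with 3 at an unadjusted p under 0.05 (26.6% of all genes), where 3.41% of all genes were higher and 3.85% lower. DESeq2 called PSMD12 higher (adjusted p = 0.0185) and PSMB10 lower (adjusted p = 0.0446) in that comparison.

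Averaged over treatments, the lines differed in a set of subunits. In the term for U2OS against MDA-MB231, 5 proteasome genes were higher in U2OS and 17 lower, where 33.1% of all genes were higher and 27.9% lower. PSMB9 was lowest, at 2.41 to 15.9 CPM over the U2OS libraries, against 13.5 to 33.1 CPM over the MDA-MB231 libraries (-2.08 ± 0.46, adjusted p = 0.00382). Under etoposide the lines were close, with 15.9 CPM of PSMB9 in U2OS and 14.9 in MDA-MB231. PSMB8 ran from 33.9 to 57.3 CPM in U2OS, against 54.8 to 121 CPM in MDA-MB231 (-0.96 ± 0.13, adjusted p = 0.000275), and both PSME1 (-1.03 ± 0.09, adjusted p = 1.45e-05) and PSME2 (-0.66 ± 0.11, adjusted p = 0.000768) were lower in U2OS. PSMB10 did not follow them (0.10 ± 0.16, adjusted p = 0.632). Of the 17 interferon and antigen genes, 3 were higher and 11 lower in U2OS, and the immune marker sum was 2.6 to 11.5 CPM in U2OS, against 41.6 to 98 CPM in MDA-MB231. The part of this sum in the difference was not tested.

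Outside the interferon-linked genes, PSMD9, a base chaperone, ran from 53.9 to 59.6 CPM in U2OS, against 90.2 to 162 CPM in MDA-MB231, with no overlap (-1.06 ± 0.12, adjusted p = 7.1e-05). The lid subunit PSMD13 (-0.82 ± 0.09, adjusted p = 7.54e-05) and the alpha subunit PSMA6 (-0.71 ± 0.09, adjusted p = 0.000141) were lower in U2OS too. PSMA6 overlaps the noncoding gene PRORP-PSMA6 and has 4 named pseudogenes. PSMC1 was called lower (-0.73 ± 0.22, adjusted p = 0.0177) at few reads and with 13 named pseudogenes. Of the genes higher in U2OS, PSMA4 ran from 264 to 381 CPM in U2OS, against 165 to 229 CPM in MDA-MB231, with no overlap (0.75 ± 0.08, adjusted p = 6.51e-05). The others were PSMA7 (0.40 ± 0.08, adjusted p = 0.0029), PSMD4 (0.34 ± 0.10, adjusted p = 0.0151), PSMC3 (0.32 ± 0.09, adjusted p = 0.00925) and PSMD1 (0.30 ± 0.09, adjusted p = 0.0146). With total-count scaling 8 genes were higher and 16 lower, where 36.5% of all genes were higher and 24.6% lower. The term for a different mean drug response in U2OS called 0 proteasome genes and 0 genes in all in edgeR, with 0 proteasome genes and 210 genes at an unadjusted p under 0.05, and DESeq2 called 0 proteasome genes.

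**Figure D5:**
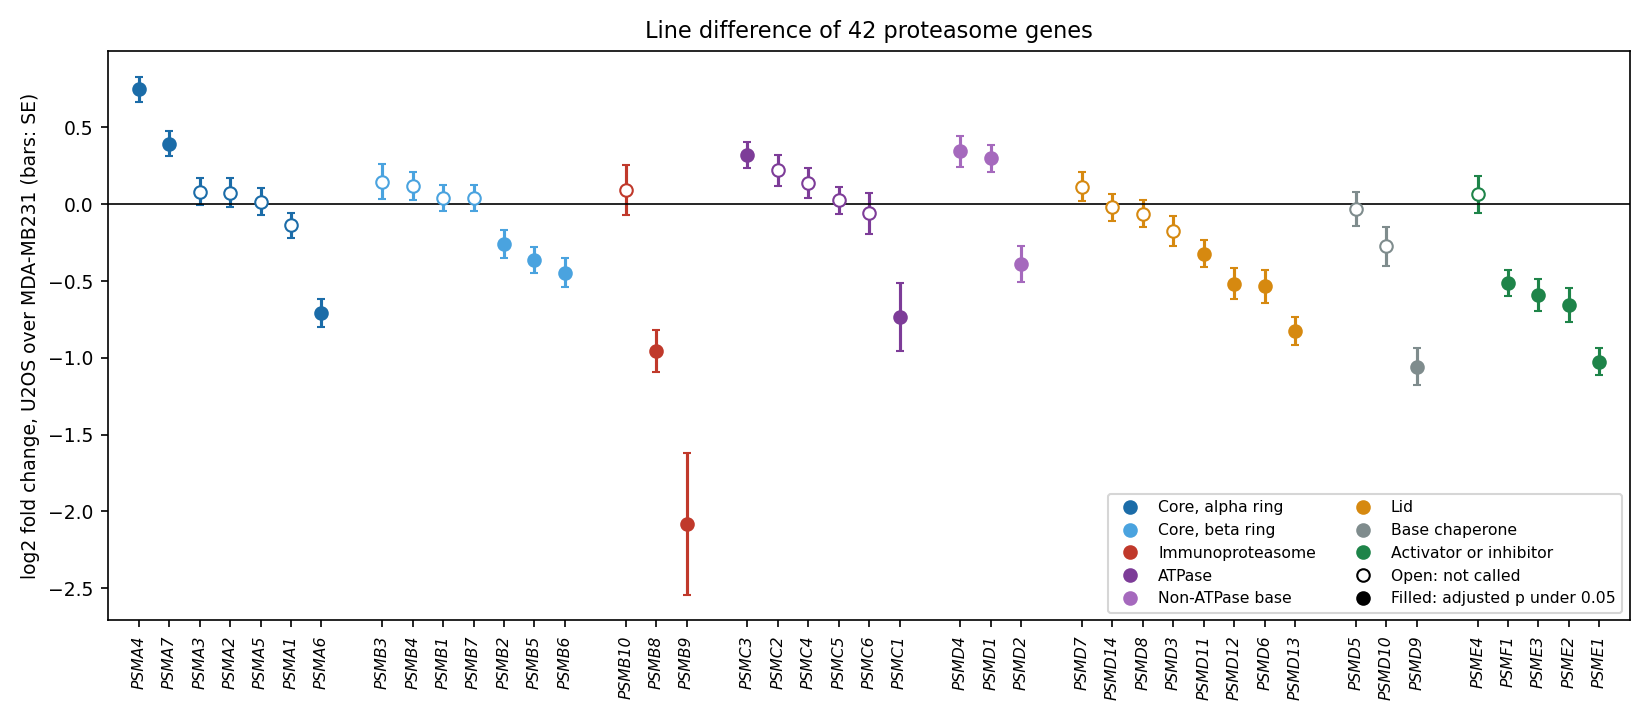
Log2 fold change with its SE, U2OS over MDA-MB231 across all 11 libraries, for 42 proteasome genes grouped by part of the complex, with filled points for genes called at an adjusted p under 0.05. PSMB9 lies lowest at -2.08, and 4 of the 5 activators and inhibitors lie below 0 as filled points.

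Of 13 assembly and associated genes, 2 rose and 4 fell under doxorubicin, where 21.9% of all genes were called higher and 20.6% lower. POMP, the maturation factor of the core, had 191 and 245 CPM in the doxorubicin libraries of U2OS and MDA-MB231, against 134 CPM in U2OS DMSO and 152 and 149 in the MDA-MB231 DMSO libraries (0.63 ± 0.14, adjusted p = 0.00618). SHFM1, a small lid subunit whose symbol falls outside the PSM rule, rose by 0.89 ± 0.15 (adjusted p = 0.00224). PSMG3, a chaperone of the alpha ring, had 14.1 and 13.7 CPM in the doxorubicin libraries of U2OS and MDA-MB231, against 66.4 CPM in U2OS DMSO and 43.1 and 37.9 in the MDA-MB231 DMSO libraries (-1.88 ± 0.24, adjusted p = 0.000617). PSMG2, another alpha ring chaperone, fell as well (-1.31 ± 0.24, adjusted p = 0.00309). PSMG1, its partner, was at -0.72 and the deubiquitinase USP14 at -0.10, and neither was called. Under etoposide 0 of the 13 rose and 2 fell, where 7.97% of all genes tested were called higher and 9.23% lower. The 2 were KIAA0368 (-0.78 ± 0.18, adjusted p = 0.0211), an adaptor of the proteasome, and UCHL5 (-0.62 ± 0.15, adjusted p = 0.0279), a deubiquitinase. Their calls were lost in 4 and 7 of 18 alternative settings. Under MMS and paclitaxel none of the 13 was called, where 5.23% of all genes were higher and 5.16% lower under MMS and 0% under paclitaxel.

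Of 10 genes of the pathway that restores proteasome levels, 1 rose and 4 fell under doxorubicin. Of all genes tested, 21.9% were called higher and 20.6% lower. NFE2L1, the transcription factor itself, had 1176 and 1437 CPM in the doxorubicin libraries of U2OS and MDA-MB231, against 427 CPM in U2OS DMSO and 512 and 555 in the MDA-MB231 DMSO libraries (1.48 ± 0.12, adjusted p = 0.000153). DDI2, the protease that cuts the NFE2L1 protein free, had 2.93 and 2.29 CPM in the doxorubicin libraries of U2OS and MDA-MB231, against 19.8 CPM in U2OS DMSO and 9.76 and 10.9 in the MDA-MB231 DMSO libraries (-2.36 ± 0.32, adjusted p = 0.000793). ZFAND5, a proteasome activator, fell by 1.77 (SE 0.21, adjusted p = 0.000535). Under MMS 5 of the 10 rose and none fell, where 5.23% of all genes tested were called higher and 5.16% lower. MAFF (2.0 ± 0.40, adjusted p = 0.0206), ZFAND2A (1.94 ± 0.25, adjusted p = 0.00648) and MAFG (1.70 ± 0.25, adjusted p = 0.00905) led, while NFE2L1 was at 0.25 and not called. Under etoposide 2 rose, MAFK (0.90 ± 0.15, adjusted p = 0.0095) and NFE2L1 (0.45 ± 0.12, adjusted p = 0.0352), where 7.97% of all genes tested were called higher and 9.23% lower. The NFE2L1 call was lost in 8 of 18 alternative settings and the MAFK call in 4. Under paclitaxel none was called, where 0% of all genes were.

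Among proteasome genes with the TGACNNNGC letters in their promoter, 5 of 11 tested rose and 3 fell under doxorubicin, against 15 higher and 2 lower of the 26 without them, where 21.9% of all tested genes were called higher and 20.6% lower. Of the 5 with the interferon-type letters, 4 rose and none fell, against 16 higher and 5 lower of the 32 without them. Of the promoters shown above with the antioxidant letters, PSMD12 was among the 3 that fell and PSME2 among the 5 that rose. The groups are small, share the libraries and were not compared by a test.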

How the data were processed

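RNA-seq of total RNA from 11 cultures of 2 human cell lines was used. The authors deposited whole-number read counts for 23228 gene symbols, with 5 summary rows, in 1 table for each library. Base calling with CASAVA 1.8.2, alignment with TopHat2 2.0.8b and counting with HTSeq (version not given), and the builds hg19 and mm9, are named in the submitters' processing notes, and hg19 was taken for these human cells. The sources used here do not give the annotation, the read length or the strand setting. The summary rows, 37.9% to 48.3% of reads tabulated, stayed out of library sizes and tests. The 2 MDA-MB231 DMSO libraries differed beyond sampling noise (chi-square per degree of freedom 26.7 over 14072 genes).

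The main model was edgeR's robust quasi-likelihood fit (edgeR 4.0.16, R 4.3.3) to the counts of all 11 libraries after filterByExpr (15888 genes) and TMM scaling, with a term per drug and a replicate block of 3 levels: U2OS, MDA-MB231 with no time in the title, and MDA-MB231 with 8hr in the title. The pairing comes from the cell line. There were 4 residual degrees of freedom and a common biological coefficient of variation of 0.213. A gene counted as called where its Benjamini-Hochberg adjusted p was below 0.05. SE is the log2 fold change over the square root of F. A term for treated U2OS cells (3 residual degrees of freedom, 16530 genes) tested the line difference in drug response. CPM are TMM-scaled, and single-line log2 ratios add 0.5 CPM and were counted at 1.5-fold where the larger CPM was at least 5. Intervals are Clopper-Pearson 95% and cover counting error only. The scripts were tested on simulated counts.

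Alternatives were DESeq2 1.42.0, its size factors, no filter on low counts, a block of 2 levels, no replicate block, only that drug with DMSO, each library left out, other CPM offsets and folds and, added after seeing the data, total gene counts as library size. Promoters and gene neighbours come from RefSeq tables of GRCh38.p14 and spans from GENCODE 29. No coordinate was moved between builds. PSMB5 to PSMB10 and, per comparison, up to 3 highest and 3 lowest called genes were to be named in full, and other proteasome genes could be named. Some genes of the lists are not reported here. The genes and lists were chosen with earlier results of these data known.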

Additional observations from a re-analysis of the deposited data

Results flagged for a closer look

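PSMB9, the immunoproteasome subunit that replaces PSMB6, moved in opposite directions under etoposide in the lines. Its log2 ratio to DMSO was 2.50 in U2OS (15.9 CPM under etoposide, against 2.41 under DMSO) and -0.68 in MDA-MB231 (14.9 CPM under etoposide, against 24.2 in DMSO replicate 1). Each value is 1 library against 1 library, and the difference between the lines under etoposide was not tested. Against DMSO replicate 2 of MDA-MB231 the ratio was -0.49 and under 1.5-fold. The term for the mean response over all 4 drugs gave PSMB9 1.53 ± 0.88 in U2OS minus MDA-MB231 (edgeR adjusted p = 1).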

How the results depend on the processing

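Of the settings tried, none reversed the direction of a called value. For the counts of proteasome genes over both lines, 24 higher and 5 lower under doxorubicin became 7 and 1 with no replicate block, that is, without the pairing by cell line, 15 and 7 with total gene counts as library size, and 16 and 3 with only that drug and DMSO. With libraries left out in turn they ran from 15 to 26 higher and from 2 to 6 lower. Over all genes the main fit called 3476 higher and 3272 lower under doxorubicin. In either direction, 1900 genes were called with no replicate block, 6526 with total counts and 4637 with only that drug and DMSO. The leave-outs gave 4058 to 7057. For MMS, DESeq2 called 1 higher and 1 lower, and the leave-outs gave 0 to 1 higher. For MMS against doxorubicin (4 higher, 22 lower) the fit with no replicate block gave 1 and 8, total counts 7 and 13, the fit with no filter on low counts 7 higher, and the leave-outs 1 to 8 higher and 4 to 23 lower. Over all genes that comparison gave 3235 higher and 3536 lower in the main fit. In either direction it gave 2062 with no replicate block and 1884 without U2OS MMS. For MMS against etoposide (1 higher) the fit with no replicate block and total counts each gave 0, and the leave-outs 0 to 1 higher and 0 to 1 lower. Over all genes that comparison gave 0 with no replicate block and 1562 with total counts. For MMS against paclitaxel DESeq2 gave 1 higher and 1 lower, and the leave-outs 0 to 1 higher. For U2OS against MDA-MB231, total counts gave 8 higher in place of 5. In single lines, total counts changed the U2OS doxorubicin counts to 11 higher and 8 lower, MDA-MB231 doxorubicin to 4 lower, U2OS etoposide to 2 higher and MDA-MB231 etoposide to 1 higher. At a fold of 2 in place of 1.5, 5 were higher and 0 lower in U2OS doxorubicin, 1 higher and 0 lower in MDA-MB231 doxorubicin, and 0 lower in U2OS MMS, MDA-MB231 etoposide and MDA-MB231 MMS. Against the other MDA-MB231 DMSO library, 3 were lower under doxorubicin and 0 under etoposide, and an offset of 2 CPM left 0 lower in MDA-MB231 MMS. The cause of these changes was not tested. Of 117 single-gene values, 40 lost a call under at least 1 setting and 8 gained one, with direction kept where called. With 1 library per line and treatment, depth limits low genes most: PSMB9 in U2OS DMSO rests on 47 reads.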

Other observations

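Ubiquitin genes and the factors that carry ubiquitin-tagged proteins to the proteasome changed in different directions under doxorubicin, with 4 higher and 4 lower of 11 tested. All genes tested were split too, with 21.9% called higher and 20.6% lower. The ribosomal fusion gene RPS27A (1.19 ± 0.17, adjusted p = 0.000888), the polyubiquitin gene UBB (0.85 ± 0.13, adjusted p = 0.00145) and the activating enzyme UBA1 (0.77 ± 0.16, adjusted p = 0.00461) rose in edgeR's test. The shuttle gene UBQLN2 fell by 1.78 (SE 0.18, adjusted p = 0.000289). Under etoposide UBQLN2 rose (0.76 ± 0.17, adjusted p = 0.0209), and the shuttle RAD23B (-0.67 ± 0.17, adjusted p = 0.0306) fell. Their etoposide calls were lost in 4 and 7 of 18 alternative settings. Under paclitaxel none was called. RPS27A and other ribosomal genes have many near-identical copies, and their counts are uncertain.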
